A study of Homo sapiens with 6 samples.

Results

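Chemokine ligands were followed in 2 human mammary cancer cell models after inhibition of DNA methylation. The members are the genes whose symbols are CXCL or CCL followed by a digit, read-through and suffixed copies included, plus CX3CL1, XCL1, XCL2, IL8 (the older symbol of CXCL8), PF4, PF4V1 and PPBP. This rule, which uses symbols only, found 48 of the 23617 symbols of the MDA-MB-231 table. Of these, 9 were also among the 1854 symbols of the HMLER table.

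MDA-MB-231 is an established human breast cancer line, and HMLER was obtained by transforming human mammary cells in vitro. Decitabine (5-aza-2'-deoxycytidine, DAC), a cytidine analog that blocks DNA methyltransferases, was given every day at 10 µM and the cells were collected 72 h after the first dose. The comparison groups were untreated cells of the same line. PolyA RNA was sequenced from 1 untreated and 1 DAC-treated library of MDA-MB-231, and from 2 untreated and 2 DAC-treated libraries of HMLER, each from pooled extractions. One label gives the untreated MDA-MB-231 library another line number, and its title was followed.

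Chemokines are small secreted or membrane-bound proteins that attract leukocytes by binding G protein-coupled receptors, and they are named after the spacing of their first cysteines (CC, CXC, CX3C or C). The CXC ligands that carry the residues glutamate, leucine and arginine (ELR) just before the first cysteine attract neutrophils and promote vessel growth. They bind CXCR2, and some of them also CXCR1. CXCL9, CXCL10 and CXCL11, which lack ELR, bind CXCR3 on T cells and are classically induced by interferon-γ. Many inflammatory chemokine genes are NF-κB targets in epithelial cells.

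The coding stretches that hold these cysteines are shown for the members on which the results turn, since they separate the ELR group from the others. They were read from GRCh37, the assembly of hg19, by the coding exons of GENCODE, 5′ to 3′ on the strand of the gene. Capitals mark the codons from ELR to the second cysteine in the ELR group, the codons from the first to the second cysteine in CXCL16, and both cysteine codons in the CC ligands. All lie in coding exons.
IL8 (chr4:74607273-74607314, plus strand): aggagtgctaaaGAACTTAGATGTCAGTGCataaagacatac
CXCL1 (chr4:74735391-74735432, plus strand): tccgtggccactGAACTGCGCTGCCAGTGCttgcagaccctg
CXCL2 (chr4:74964593-74964634, minus strand): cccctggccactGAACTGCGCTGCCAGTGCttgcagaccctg
CXCL3 (chr4:74904084-74904125, minus strand): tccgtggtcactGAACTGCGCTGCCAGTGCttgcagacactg
CXCL5 (chr4:74864000-74864041, minus strand): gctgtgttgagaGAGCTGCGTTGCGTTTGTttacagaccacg
CXCL6 (chr4:74702695-74702736, plus strand): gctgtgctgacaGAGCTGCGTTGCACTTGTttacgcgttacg
CXCL16 (chr17:4642163-4642195, minus strand): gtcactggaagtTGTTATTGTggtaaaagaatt
CCL20 (chr2:228680175-228680204, plus strand): agcaactttgacTGCTGTcttggatacaca
CCL26 (chr7:75401281-75401310, minus strand): atatccaagaccTGCTGCttccaatacagc
CCL28 (chr5:43388538-43388567, minus strand): attgcctccagcTGTTGCacggaggtttca

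The coding sequences of CXCL1, CXCL2 and CXCL3 have the same length and are near copies. CXCL1 was 93.5% identical to CXCL2 and 90.7% to CXCL3, and CXCL2 was 94.4% identical to CXCL3. Of the windows of 50 bases in the CXCL1 transcript, 5.33% were also in CXCL2 and 0.533% in CXCL3, and 5.07% of those of CXCL2 were in CXCL3. Reads that fall there could be given to either gene, so the split of reads among these genes is uncertain to that extent. CXCL5 and CXCL6, with 87.4% identity, shared no such window.

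Expression is given as FPKM, the fragments of a transcript scaled to its length in kilobases and to the depth of the library, as deposited. Where a gene had several transcripts, the one with the highest FPKM over both conditions stands for it. The HMLER table has a single merged value for each condition and lists only transcripts that were at least 2.001-fold higher after DAC and reached 1.003 FPKM, so a member that is not listed there may have fallen, stayed or been low. The 2 tables were scaled separately, and levels are compared between the lines only with that limit. With 1 value per condition in each line, no test between conditions was possible, and a gene was counted as higher or lower when its FPKM differed more than 2-fold and reached 1 FPKM in at least 1 condition. The low MDA-MB-231 values stood at whole numbers of reads, within 0.1 of a read for 100% of 1105 low values in the untreated and 1391 in the DAC library where chance gives 20%. Reads per gene could therefore be inferred, and 1 read was worth 1.01 times as much FPKM in the DAC library as in the untreated one. The bounds given with each MDA-MB-231 value are those of Cuffdiff, and the intervals given with a ratio are exact 95% binomial intervals from the inferred reads, which cover counting error in these libraries only. The median DAC/untreated ratio of symbols that reached 1 FPKM in each MDA-MB-231 library was 0.908 (log2 of -0.14).

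In MDA-MB-231, most chemokine ligand genes had no reads with or without DAC. Of the 48 members, 29 were listed at 0 in both libraries, 13 were above 0 but under 1 FPKM, and 6 reached 1 FPKM in at least 1 library. A count of 0 allows up to 3 reads, which is 0.0259 to 0.208 FPKM in the untreated library depending on the length of the transcript. The 6 genes were IL8, CXCL1, CXCL3, CXCL16, CCL26 and CCL28. Of these, 4 were more than 2-fold higher after DAC (11.5% of all 12396 symbols at this level) and none was more than 2-fold lower (5.86% of all symbols). CXCL3, CXCL16, CCL26 and CCL28 reached 1 FPKM only through the DAC library, so the filter itself favours a higher call for them. Without the filter, 11 of the 19 members above 0 were more than 2-fold higher (28.9% of all symbols above 0) and 3 were more than 2-fold lower (6.81%). These 3 were CCL17, CCL24 and CXCL12, which had 1, 2 and 1 reads in the untreated library and 0 after DAC. CX3CL1, XCL1, CCL5, CXCL11 and CXCL17 counted as higher from 0 untreated reads, with 4, 1, 2, 5 and 5 after DAC. The counts without the filter thus rest in part on very few reads in both directions.

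**Figure D1:**
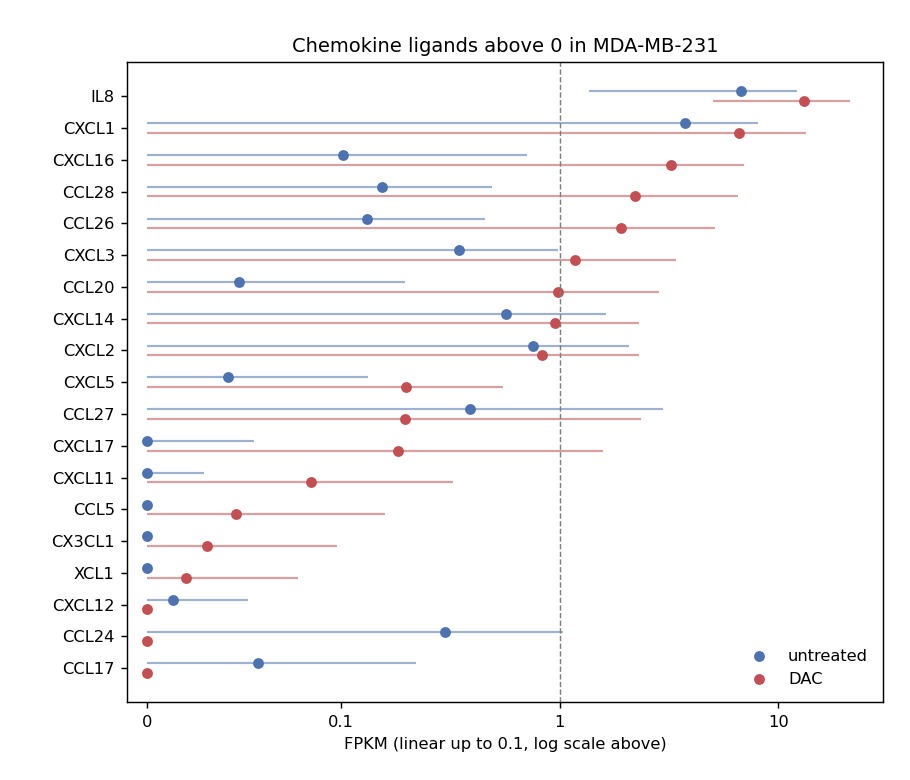
FPKM of the 19 chemokine ligands above 0 in MDA-MB-231, for the untreated (blue) and the DAC-treated (red) library, with lines from the lower to the upper Cuffdiff bound. The axis is linear up to 0.1 FPKM and logarithmic above, and the dashed line marks 1 FPKM, which IL8 and CXCL1 passed in both libraries.

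In HMLER, 9 chemokine ligands were listed as higher after DAC, or 18.8% of the members, where 7.85% of all symbols of the MDA-MB-231 table were listed. They were IL8, CXCL1, CXCL3, CXCL5 and CXCL6 of the ELR group, CXCL16, and the CC ligands CCL5, CCL20 and CCL26. Their median log2 change, with 1 FPKM added, was 1.16, and that of all listed symbols was 1.17. The highest DAC level was that of CXCL1 (37.8 FPKM) and the lowest that of CXCL6 (1.14 FPKM). Of these 9, 8 also had a higher DAC than untreated value in MDA-MB-231, and the other, CXCL6, was listed at 0 in both of its libraries. The members higher in both lines by the 2-fold and 1 FPKM rule were CXCL3, CXCL16 and CCL26, or 3 genes, where the same rule gave 3.8% of the 12396 symbols.

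**Figure D2:**
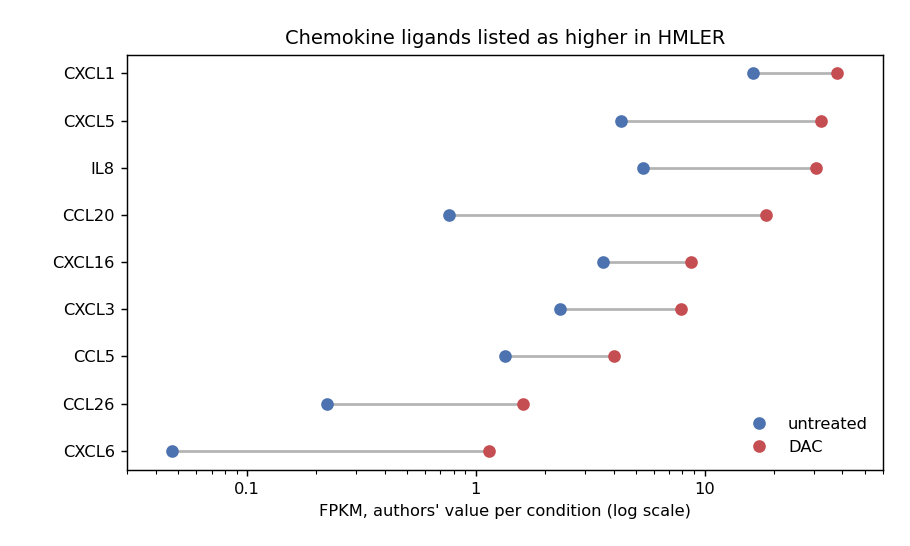
FPKM of the 9 chemokine ligands listed in HMLER, in untreated (blue) and DAC-treated (red) cells, with 1 value per condition merged over 2 libraries, on a log scale. The DAC values run from 1.14 for CXCL6 to 37.8 for CXCL1, and the longest lines, with a ratio of 24.3 each, are those of CXCL6 and CCL20.

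The ELR ligands IL8 and CXCL1 had the highest FPKM of the members in MDA-MB-231. Among the 9 ligands listed in HMLER, CXCL1, CXCL5 and IL8 had the highest FPKM after DAC. IL8 (chromosome 4, 74606236 to 74609433, plus strand, hg19), the main neutrophil attractant of the family, was 6.74 FPKM (bounds 1.36 to 12.1) without DAC and 13.1 FPKM (bounds 5.01 to 21.2) with it in MDA-MB-231. This is a ratio of 1.94 from 431 and 832 reads (interval 1.73 to 2.19), just under the 2-fold threshold, and the bounds of the libraries overlapped. After division by the median ratio of 0.908 it was 2.14, past the threshold. In HMLER, IL8 was 5.40 FPKM without and 30.6 FPKM with DAC, a ratio of 5.68.

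CXCL1 (chromosome 4, 74735110 to 74737025, plus strand), a growth-regulated ligand of CXCR2, was 3.74 FPKM (bounds 0 to 8.04) without DAC and 6.61 FPKM (bounds 0 to 13.4) with it in MDA-MB-231. The ratio was 1.76, from 154 and 270 reads (interval 1.44 to 2.17). In HMLER it was 16.3 and 37.8 FPKM, a ratio of 2.32, and it had the highest untreated level of the 9 listed ligands. Its near copy CXCL3 (chromosome 4, 74902306 to 74904524, minus strand) was 0.346 FPKM (bounds 0 to 0.985) in the untreated and 1.17 FPKM (bounds 0 to 3.40) in the DAC library, with 14 and 47 reads and a ratio of 3.38 (interval 1.83 to 6.65). Its ratio in HMLER was 3.38 as well, from 2.33 to 7.88 FPKM. CXCL2 (chromosome 4, 74962757 to 74964913, minus strand), the remaining gene of this trio, was 0.751 and 0.827 FPKM in MDA-MB-231. Its ratio of 1.10 (32 and 35 reads, interval 0.662 to 1.84) did not differ from 1 beyond counting error, and it was not listed in HMLER.

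CXCL5 and CXCL6, which attract neutrophils through CXCR2 and, for CXCL6, also CXCR1, were listed in HMLER and stayed under 1 FPKM in MDA-MB-231. CXCL5 (chromosome 4, 74861359 to 74864394, minus strand) was 4.30 FPKM in HMLER without DAC and 32.2 FPKM with it, a ratio of 7.50. In MDA-MB-231 it was 0.0416 FPKM (4 reads) without and 0.199 FPKM (19 reads) with DAC, a ratio of 4.78 (interval 1.59 to 19.3) at a level far under 1 FPKM. CXCL6 was 0.0471 and 1.14 FPKM in HMLER and at 0 in both MDA-MB-231 libraries, where 3 reads would be 0.0484 FPKM in the untreated one. PPBP, the platelet member of the ELR group, was at 0 in MDA-MB-231 and not listed in HMLER. Of the 7 ELR ligands, 5 were thus listed in HMLER and 3 reached 1 FPKM in MDA-MB-231.

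These genes lie together. On chromosome 4, 9 members stand within 359 kb (74606236 to 74964913), in the order IL8, CXCL6, PF4V1, CXCL1, PF4, PPBP, CXCL5, CXCL3 and CXCL2. The reads on this stretch were 635 in the untreated and 1203 in the DAC library of MDA-MB-231, of which IL8 and CXCL1 took most. PF4, PF4V1 and PPBP, the platelet chemokines placed between the ELR ligands, were at 0 in both libraries and not listed in HMLER. A higher level after DAC was therefore seen for some genes of the stretch and not for all of them.

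**Figure D3:**
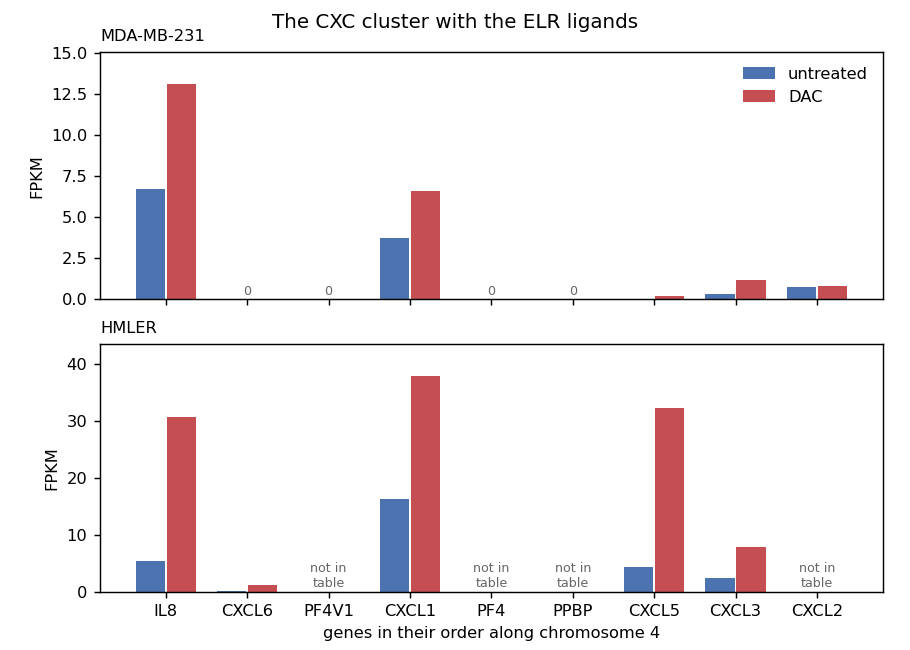
FPKM of the 9 chemokine genes of the chromosome 4 stretch, in gene order, in MDA-MB-231 (top, transcripts of a gene summed) and HMLER (bottom), untreated in blue and DAC-treated in red. The bars of IL8 and CXCL1 stand out in MDA-MB-231 and those of IL8, CXCL1 and CXCL5 in HMLER, while PF4V1, PF4 and PPBP are at 0 or not in the table.

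The letters just before the transcription start are shown for the ELR genes of the chromosome 4 stretch, to compare neighbours that differed in level, and for CCL20. The promoters are from RefSeq (GRCh38.p14), which held 33 of the 48 members. Both strands of the 250 bases before the start were searched for the consensus motif of NF-κB, the transcription factor family that drives inflammatory genes. The motif was in 9.96% of all 35116 promoters and in 10 of the 38 promoters of members. CXCL1, CXCL2, CXCL3, CXCL5 and CXCL6 each held it, overlapping itself on the opposite strand, and CCL20 held it on 1 strand. The other members that held it were CCL1 and CCL22, which were at 0 in MDA-MB-231, and the CXCR3 ligands CXCL10 and CXCL11. CCL26 and both entries of CCL28, which were higher after DAC, did not hold these letters in this window, and CXCL16 and CCL5 had no entry. Whether the motif bears on the change after DAC was not tested. The pattern searched was GGG(A/G)NN(C/T)(C/T)CC, with N any base, and a miss of it does not show that a promoter lacks an NF-κB site. IL8 did not match it in this window, but its letters tggaatttcc, seen below, differ from it in the first base only. IL8 also had an AP-1 motif (TGANTCA, in 6.57% of all promoters) and a TATAAA (in 10.7%). The last 120 bases before the start are shown, with the NF-κB motif in capitals.
IL8 (chr4:73740449-73740568, plus strand): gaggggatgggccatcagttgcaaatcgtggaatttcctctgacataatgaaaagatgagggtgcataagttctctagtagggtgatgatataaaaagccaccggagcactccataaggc
CXCL1 (chr4:73869273-73869392, plus strand): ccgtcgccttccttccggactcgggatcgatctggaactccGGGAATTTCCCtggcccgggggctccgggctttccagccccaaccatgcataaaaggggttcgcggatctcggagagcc
CXCL2 (chr4:74099196-74099315, minus strand): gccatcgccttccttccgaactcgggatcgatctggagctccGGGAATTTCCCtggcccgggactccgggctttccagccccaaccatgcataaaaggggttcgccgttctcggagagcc
CXCL3 (chr4:74038690-74038809, minus strand): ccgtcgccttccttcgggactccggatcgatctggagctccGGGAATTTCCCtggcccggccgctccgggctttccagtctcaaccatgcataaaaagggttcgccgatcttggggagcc
CXCL5 (chr4:73998678-73998797, minus strand): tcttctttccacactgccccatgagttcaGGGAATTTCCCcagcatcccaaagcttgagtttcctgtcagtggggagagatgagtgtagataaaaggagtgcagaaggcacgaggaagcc
CXCL6 (chr4:73836558-73836677, plus strand): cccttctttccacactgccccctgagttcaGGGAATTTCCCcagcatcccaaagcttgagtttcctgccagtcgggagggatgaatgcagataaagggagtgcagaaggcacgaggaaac
CCL20 (chr2:227813722-227813841, plus strand): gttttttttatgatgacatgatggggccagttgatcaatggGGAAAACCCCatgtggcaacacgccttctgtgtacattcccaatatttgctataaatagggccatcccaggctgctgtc

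CXCL2, which held the same letters as CXCL1 and CXCL3, was the one of the trio whose interval in MDA-MB-231 (0.662 to 1.84) included 1. That interval overlapped those of CXCL1 (1.44 to 2.17) and CXCL3 (1.83 to 6.65), so a difference within the trio is not shown. The number of CpG dinucleotides, the sites that DNA methyltransferases act on, differed among these promoters. It was 18 in CXCL1, 20 in CXCL2 and 19 in CXCL3, but 6 in CXCL5, 6 in CXCL6, 4 in IL8, 3 in CCL20 and 4 in CCL26, where the median of all promoters was 11. CCL28 has 2 entries, with 2 and 20 CpG dinucleotides. Genes that were higher after DAC thus had few as well as many of these sites in this window, and their methylation was not analysed here. CXCL16 had no entry.

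CXCL16 showed the largest ratio in MDA-MB-231 among members at 1 FPKM or more. It encodes a membrane-bound ligand of CXCR6 that is shed by ADAM10, and it lies at chromosome 17, 4636828 to 4643223, on the minus strand. Its main transcript was 0.102 FPKM (bounds 0 to 0.707) without DAC and 3.23 FPKM (bounds 0 to 6.94) with it in MDA-MB-231, a ratio of 31.7. Over both of its transcripts there were 14 and 331 reads, a ratio of 23.8 (interval 13.98 to 44). The counting interval was far from 1 while the Cuffdiff bounds, which are wider, overlapped. In HMLER the same transcript was already at 3.61 FPKM without DAC and was 8.68 FPKM with it, a ratio of 2.40. CXCR6, the receptor of this ligand, was 0.268 FPKM in the untreated and 0.229 FPKM in the DAC library of MDA-MB-231. ADAM10 was 41.2 and 25.3 FPKM, a ratio of 0.614.

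Among the other CXC ligands, CXCL14, an epithelial chemokine, was 0.570 FPKM (43 reads) in the untreated and 0.948 FPKM (71 reads) in the DAC library, a ratio of 1.66 (interval 1.12 to 2.49). CXCL17, a mucosal ligand, had 0 and 5 reads. CXCL12, the ligand of CXCR4, had 1 and 0 reads, although CXCR4 itself was measured at 1.79 and 2.60 FPKM. The CXCR3 ligands were close to absent, since CXCL9 and CXCL10 were at 0 in both libraries and CXCL11 had 0 and 5 reads. None of these genes was listed in HMLER.

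The CC ligands were at or near 0 in untreated MDA-MB-231 cells, and 3 of them, CCL20, CCL26 and CCL28, stood out after DAC. CCL20 (chromosome 2, 228670455 to 228682280, plus strand), which attracts dendritic and T cells through CCR6, was 0.0476 FPKM (bounds 0 to 0.196) in the untreated and 0.986 FPKM (bounds 0 to 2.84) in the DAC library. Over its 2 transcripts it had 2 and 27 reads, a ratio of 13.6 (interval 3.41 to 117.9), and their summed FPKM after DAC was 1.004. In HMLER it was 0.767 and 18.6 FPKM, a ratio of 24.3. This ratio and that of CXCL6, which was also 24.3 but started from 0.0471 FPKM, were the highest of the 9 ligands listed in HMLER.

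CCL26 (eotaxin-3, chromosome 7, 75398851 to 75419214, minus strand), a ligand of CCR3 on eosinophils, was higher after DAC in both lines. It was 0.131 FPKM (bounds 0 to 0.453) in the untreated and 1.91 FPKM (bounds 0 to 5.15) in the DAC library of MDA-MB-231, with 2 and 29 reads and a ratio of 14.6 (interval 3.69 to 126.2). In HMLER it was 0.224 and 1.61 FPKM, a ratio of 7.22. CCL24, its neighbour and also a ligand of CCR3, had 2 and 0 reads in MDA-MB-231 and was not listed in HMLER.

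CCL28 (chromosome 5, 43376747 to 43412493, minus strand), a ligand of CCR10 and CCR3 made by mucosal epithelia, was higher in MDA-MB-231 and not listed in HMLER. It was 0.153 FPKM (bounds 0 to 0.489) without DAC and 2.20 FPKM (bounds 0 to 6.51) with it, with 4 and 57 reads and a ratio of 14.3 (interval 5.31 to 54.4). Its receptor CCR10 was 0.789 FPKM (35 reads) and 2.13 FPKM (94 reads), a ratio of 2.70, with overlapping bounds. CCL27, the other ligand of CCR10, had 4 and 2 reads.

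CCL5, which attracts T cells and monocytes, was listed in HMLER and had almost no reads in MDA-MB-231. It was 1.34 FPKM in HMLER without DAC and 4.005 FPKM with it, a ratio of 2.99, against 0 and 2 reads. It was also the single member of the chromosome 17 groups of CC genes with any read. Near 34 Mb, 12 members including CCL3, CCL4 and CCL5 lie within 427 kb (34198495 to 34625731), and a further 6, including CCL2 and CCL7, lie within 108 kb (32582293 to 32690252). The monocyte attractants CCL2, CCL7, CCL8 and CCL13 and the macrophage inflammatory proteins CCL3 and CCL4 were thus at 0 in both MDA-MB-231 libraries and not listed in HMLER. Of the lymphoid ligands, CCL1, CCL19, CCL21, CCL22 and CCL25 were at 0 and CCL17 had 1 and 0 reads. CX3CL1, the membrane-bound ligand of CX3CR1, had 0 and 4 reads, XCL1 had 0 and 1, and XCL2 was at 0.

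**Figure D4:**
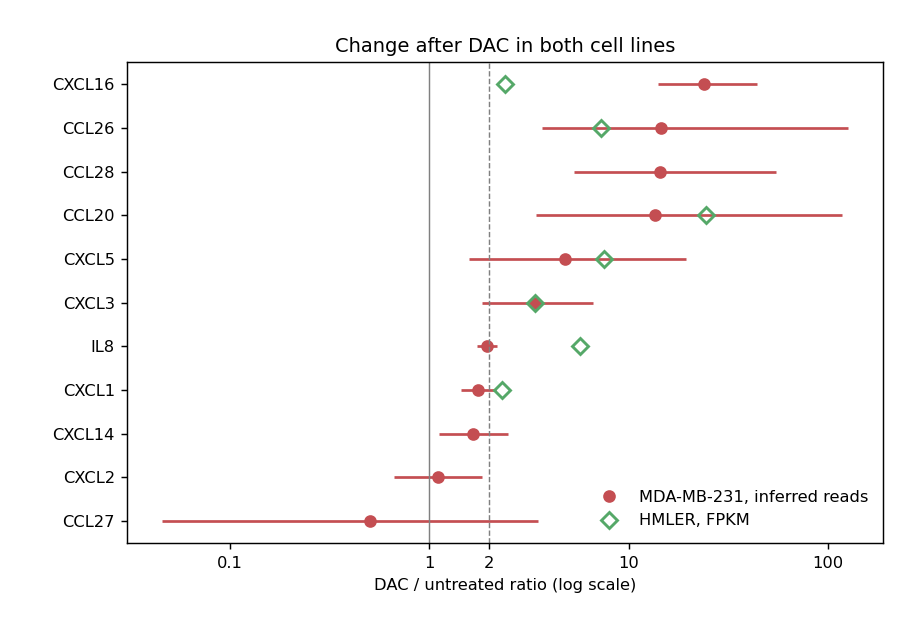
DAC/untreated ratio on a log scale for the 11 chemokine ligands with a read in the untreated and at least 4 reads in 1 MDA-MB-231 library. Red points and lines give the ratio of inferred reads and its 95% counting interval in MDA-MB-231, open green diamonds the FPKM ratio in HMLER where listed, and the dashed line marks 2-fold. For IL8 and CXCL1 the HMLER ratios of 5.68 and 2.32 lie above the MDA-MB-231 intervals, and for CXCL16 the HMLER ratio of 2.40 lies under it. The HMLER ratios carry no interval, and none under 2.001 is listed. A listed CXCL1 or IL8 was thus nearly bound to lie above its interval, which ends at 2.17 for CXCL1 and 2.19 for IL8.

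Of the 14 members with at least 4 reads in 1 library, the counting interval was above 1 for 9 (CCL20, CCL26, CCL28, CXCL1, CXCL3, CXCL5, CXCL14, CXCL16 and IL8) and under 1 for none. By the same rule, 37.6% of all 16648 symbols were higher and 37.5% lower. The spread between cultures is not in this interval. The difference between the lines was not tested, as each has 1 value per condition. The sizes for IL8 (1.94 in MDA-MB-231 and 5.68 in HMLER) and CXCL16 (31.7 and 2.40 for the same transcript) were the most unlike among the 7 ligands with reads in both lines and conditions, in opposite directions. For IL8 the direction was set by the listing, as HMLER lists no ratio under 2.001.

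Most chemokine receptors were under 1 FPKM too. Of 23 receptor genes measured in MDA-MB-231, 3 reached 1 FPKM, and 2 of these were more than 2-fold higher after DAC (11.5% of all symbols at this level). These were CCR10 and the atypical receptor CCRL2, whose larger transcript was 2.03 and 4.11 FPKM, a ratio of 2.02. Summed over its 2 transcripts CCRL2 was 4.65 and 5.55 FPKM, a ratio of 1.19. CXCR1 was at 0 and CXCR2 had 2 and 0 reads, so the receptors of the ELR ligands were not detectable at this depth after DAC. CCR6, the receptor of CCL20, had 3 and 0 reads. In HMLER, CCR7 was listed, with 0.908 and 2.45 FPKM.

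NF-κB genes were measured beside the ligands. Of 24 genes of this pathway, 23 reached 1 FPKM in MDA-MB-231. Their median log2 change, with 1 FPKM added to each value, was 0.26, where that of all symbols was -0.09. Of these, 5 were more than 2-fold higher (11.5% of all symbols) and none lower (5.86%). In HMLER, 7 of the 24 were listed, where 7.85% of all symbols of the MDA-MB-231 table were. That share also counts symbols under 1 FPKM, so it is a low yardstick for these mostly expressed genes. The share among expressed symbols was not computed. RELB, a subunit of the non-canonical branch, was 1.30 FPKM (bounds 0 to 3.03) without DAC and 11.4 FPKM (bounds 4.87 to 18) with it in MDA-MB-231, a ratio of 8.78 with bounds that did not overlap. It was 5.25 and 15.7 FPKM in HMLER. NFKB2, its partner in that branch, was 4.68 (bounds 1.16 to 8.19) and 20.8 FPKM (bounds 9.49 to 32.2) in MDA-MB-231, also with bounds that did not overlap, and another of its transcripts was 2.07 and 9.40 FPKM in HMLER. By contrast, the subunits RELA and NFKB1 had ratios of 0.885 and 0.991 in MDA-MB-231, and neither was listed in HMLER. The feedback inhibitors NFKBIE and TNFAIP3 were higher in both lines, TNFAIP3 with 1.32 and 3.40 FPKM in MDA-MB-231 and with 1.40 and 15.2 FPKM in HMLER. NFKBIE was 6.28 and 14.4 FPKM in MDA-MB-231 and 4.68 and 11.96 FPKM in HMLER. TRAF1 was higher in MDA-MB-231 (0.280 and 1.28 FPKM), where it reached 1 FPKM through the DAC library only. The MDA-MB-231 bounds of NFKBIE, TNFAIP3 and TRAF1 overlapped. NFKBIB, TNIP1 and CYLD were listed in HMLER. NFKBIA, the classic inhibitor, had a ratio of 0.774 in MDA-MB-231. Whether these genes bear on the ligands was not tested.

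Of 10 genes for the cleavage of ligands and the control of the CXCR3 ligands, 8 reached 1 FPKM and none was past 2-fold. IRF1 had a ratio of 1.98 (2.80 and 5.54 FPKM), and IFNG was at 0. DPP4, a peptidase that trims many chemokines, was named after its value was seen, as it stayed under 1 FPKM (0.0381 and 0.735 FPKM, 6 and 115 reads).

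Markers of leukocytes, the usual source of many ligands at 0 here, were checked in MDA-MB-231. Of 15, all but CD68 were under 1 FPKM in both libraries. The summed level of the other 14 was 0.794 FPKM in the untreated and 2.54 FPKM in the DAC library, with 6 of the 15 at 0 in the former and 4 in the latter. The part of this difference in the ligand values was not tested. PTPRC, which marks all leukocytes, was 0.0247 and 0.119 FPKM for its main transcript, CD14 was 0.0347 and 0.512 FPKM, and MS4A1 and FCGR3B were at 0. CD68 was 114.5 and 138.3 FPKM. The mesenchymal marker VIM, high as is known for MDA-MB-231, was 3066 FPKM (bounds 0 to 10420) and 1134 FPKM (bounds 120 to 2147). Its ratio of 0.370 counts as lower by the 2-fold and 1 FPKM rule, with overlapping bounds. CD44 was 159 and 98.2 FPKM and EGFR 34.6 and 23.3 FPKM, also with overlapping bounds. CDH1 was at 0 and 0.179 FPKM, ESR1 and PGR were at or near 0, and ERBB2 was 10.1 and 10.7 FPKM. In bulk RNA, fewer expressing cells and less RNA per cell cannot be told apart. Of these markers only CD44 was listed in HMLER, where another of its transcripts was 1.23 and 8.26 FPKM, a ratio of 6.71. The rest could not be checked there in a table of genes that rose.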

How the data were processed

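Total RNA was extracted, and polyA libraries were sequenced. Per the labels and the methods of the study, TopHat2 placed the reads on hg19 and Cuffdiff gave the deposited FPKM of each RefSeq transcript, on Galaxy. Tool versions are not given in the sources used here. These FPKM were used as they stand, and the columns of fold change, test statistic, p and q were left out as a comparison the authors made. The members, gene lists and thresholds were chosen with earlier results of these data known, and every ligand at 1 FPKM or listed in HMLER was named. Log2 changes were computed with a pseudocount of 1 FPKM, which understates the change of low genes. Inferred reads are FPKM times the transcript length less 204 bases, divided by what 1 read is worth (0.0235 FPKM at an effective length of 1 kb in the untreated library), a relation found on transcripts of 500 to 4000 bases that are alone at their locus. The counting of calls was tested on simulated data. Gene positions come from GENCODE lifted to GRCh37. Scripts ran in Python 3.11.15 with pandas 2.3.3, matplotlib 3.10.9, scipy 1.17.1 and numpy 2.4.6.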

Additional observations from a re-analysis of the deposited data

How the results depend on the processing

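No paired analysis was possible because each line gives a single value for untreated and for DAC-treated cells, so no replicate could be left out either. In MDA-MB-231, 4 ligands were counted as higher, which became 11 when low values were kept, 0 when both conditions had to reach 1 FPKM, 0 when 1 condition had to reach 5 FPKM, 0 when the Cuffdiff bounds had to stay apart, and 9 by the counting interval, which was added after seeing the data. The number lower (0) became 3 when low values were kept. The number higher in both lines (3) was 6, 0, 0, 0 and 7 under these same settings. The filters remove CXCL3, CXCL16, CCL26 and CCL28 by construction. Summing transcripts gave 5 ligands higher in MDA-MB-231, with CCL20, division by the median ratio gave 5, with IL8, and a pseudocount of 1 FPKM in the ratio gave 3, without CXCL3, and 2 in both lines. The median log2 change of the 6 ligands at 1 FPKM or more in MDA-MB-231 was 1.12, where that of all symbols was -0.09. The filter itself raises this median, as CXCL3, CXCL16, CCL26 and CCL28 passed only through the DAC library. It was 0.20 when low values were kept and 0.77 under either stricter filter, which left IL8 and CXCL1 only. With transcripts summed it was 0.90, with a pseudocount of 0.1 it was 2.32, and after division by the median ratio it was 1.25. The number in HMLER (9) was 6 with either stricter filter. For the 10 ligands at 1 FPKM in MDA-MB-231 or listed in HMLER, no log2 change turned direction in MDA-MB-231 with transcripts summed. In HMLER no sum could turn one, as only transcripts that rose are listed. A pseudocount of 0.1 changes sizes but cannot turn a direction. Division by the median ratio, which is under 1, only raises the MDA-MB-231 values, and it moved CXCL6 from 0 to 0.14. Neither setting therefore bears on the direction. The other ligands were not run one by one.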
